A study of Mus musculus with 2 samples.

Results

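The 10 genes described here are 4 SOCS inhibitors (Socs1, Socs2, Socs3 and Cish), the receptor chains Il6ra, Il6st, Il10ra and Il10rb, the transcription factor Stat3 and the kinase Pim1. They were chosen by name, as every probe that is not a control and whose accession, symbol or synonym gives one of these genes. That gave 15 of 41174 probes and 10 of 14921 genes tested. RNA of double-positive (DP) thymocytes, which carry both CD4 and CD8, was compared on 2 mouse 2-colour oligonucleotide arrays. Each array held 1 sample of Bcl11bF/FCD4Cre/Tcra-/- mice labelled with Cy5 and 1 of TCRa-/- mice labelled with Cy3. Both groups lack Tcra, so the thymocytes compared lack an alpha beta T cell receptor and are not positively selected. In the first group the Bcl11b gene is floxed and Cre comes from a Cd4-driven transgene; these cells are called deficient below. The labels give the controls no Cre and no floxed allele, so Cre and loss of Bcl11b cannot be told apart, nor can genotype and dye. Ages, and whether each sample came from 1 mouse or several, are not given in the labels, which call the arrays biological replicates 1 and 2.

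Cytokines of the interleukin-6 family bind a private receptor chain, such as the one encoded by Il6ra, and then the shared chain gp130, encoded by Il6st. Janus kinases on the receptors phosphorylate STAT3, which enters the nucleus and turns on genes that include Socs3 and Pim1. Interleukin-10 signals to STAT3 too, through its own chain IL-10RA and a chain IL-10RB that it shares with related cytokines. SOCS proteins close the loop: they bind receptors or Janus kinases through an SH2 domain and recruit a ubiquitin ligase through their SOCS box. In the thymus SOCS1 is known as the main brake on common gamma chain cytokines and interferon gamma in DP cells.

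Negative control spots had median signals of 923 and 1036 in Cy5 and 696 and 732 in Cy3. Between 50.5% and 56.5% of spots were well above background in a channel. Bcl11b itself, by its 2 probes, stood at 37.9% and 38.7% of control on replicate 1 and at 82.6% and 22.4% on replicate 2. One probe thus read near control on replicate 2, and the labels do not say which part of Bcl11b is deleted, so neither probe can be tied to it and the probes do not check the genotype. All 11 DP markers were measured, with summed processed signals of 220110 and 192657 in the deficient cells and 291490 and 255021 in the controls. Markers of other cells differed between samples. Granulocyte markers (4 of 6 measured, with Elane not well above background in any channel) summed to 36695 and 5243 in the controls and 6483 and 8874 in the deficient cells. Erythroid markers (3 of 5) summed to 127493 and 20151 in the controls and 71778 and 107949 in the deficient cells. Macrophage or monocyte markers (12 of 13) summed to 31316 and 12807 in the controls and 35250 and 33834 in the deficient cells. By these sums the control of replicate 1 was the highest sample for granulocyte and erythroid markers, and the control of replicate 2 the lowest for these and for macrophage markers. All 10 markers of NK or innate-like lymphocytes were well above background somewhere, and their sums were 11656 and 11134 in the deficient cells against 5851 and 5130 in the controls. The part of such cells in the results below was not tested, and in bulk RNA fewer cells of a type and less RNA per cell cannot be told apart.

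Values are normalised log2 signals of each channel, or log2 ratios of deficient over control with the mean ± SE of 2 arrays from limma, a linear model that borrows error from all genes. Socs3 and Il10ra read at less than 60% of control on both arrays, and Il6ra was lower by less. Il10rb, Socs1, Pim1, Stat3 and Il6st were higher on both arrays, and Socs2 and Cish had opposite signs on the arrays. None of the 10 passed limma's test at an adjusted p of 0.05, a threshold that 0 of 14921 genes passed (0%). At an unadjusted p under 0.05 there were 4 of 10 members (Socs3, Il10ra, Il10rb and Il6ra), against 29.2% of all genes. Separate-channel limma, which fits both channels with the array as a random effect, called 2 of the 10 (Socs3 and Il10ra) and 8.56% of all genes. With median centring of each array, 3 members passed, Stat3 being the third, and so did 6.58% of all genes. Higher on both arrays were 5 members, against 36.4% of all genes, and lower on both were 3, against 38.5%. The median ratio of the 10 was 0.07, against -0.0035 for all genes. At least 1.5-fold lower on both arrays were 2 members, Socs3 and Il10ra, against 1.21% of all genes, and no member was 1.5-fold higher on both, against 2.47%.

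**Figure D1:**
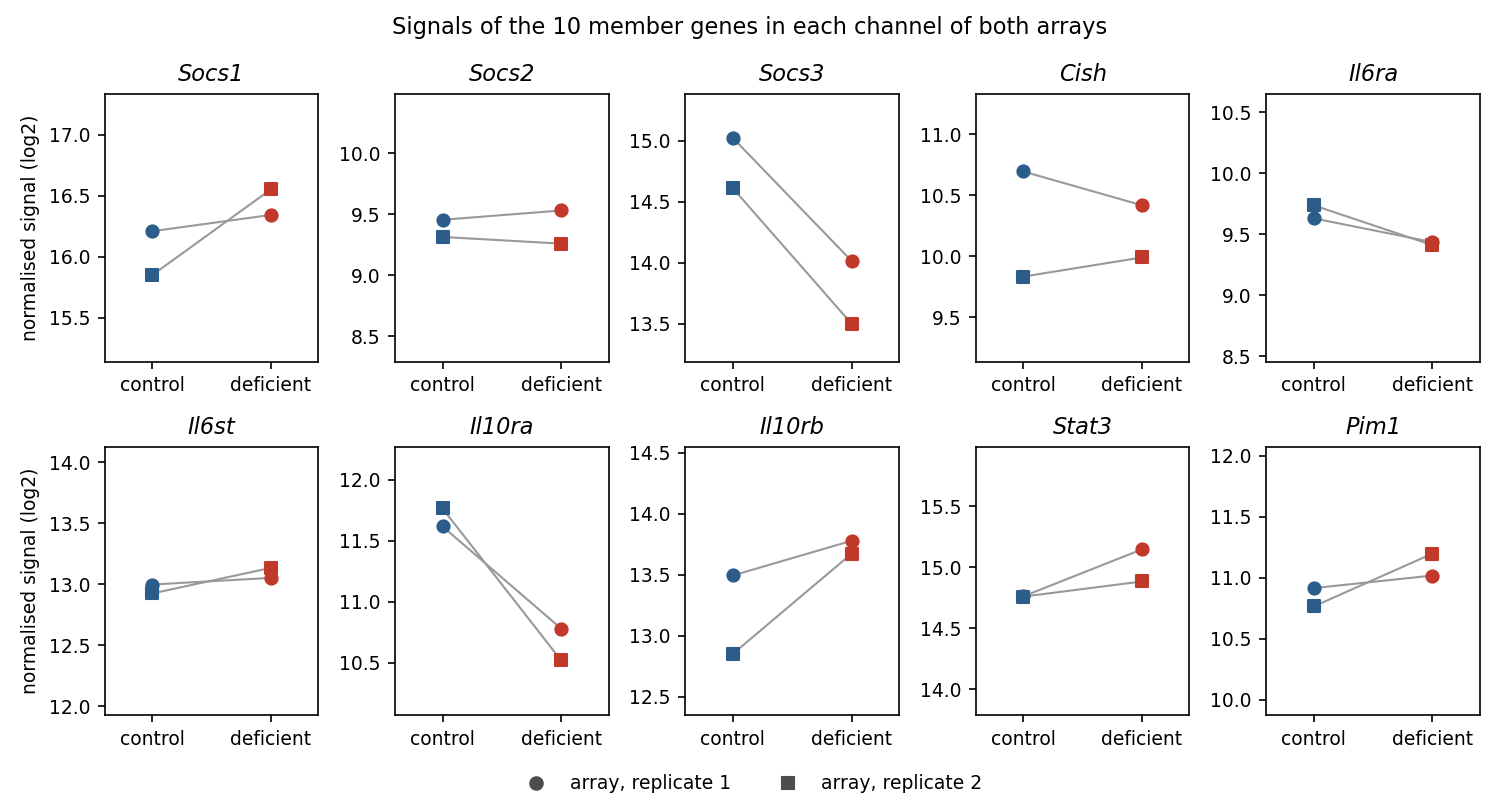
Normalised log2 signal (vertical axis, with the same span of 2.2 units in each panel) of each member gene in the control and deficient channels, with a line joining the channels of one array. Both lines slope down for Socs3 (15.02 to 14.02 and 14.61 to 13.50) and Il10ra (11.62 to 10.78 and 11.77 to 10.52), and the lines of Cish and Socs2 run in opposite directions.

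Socs3 encodes the inhibitor that binds gp130 and blocks its Janus kinases, and it is itself induced by STAT3. Its normalised log2 signals were 14.02 and 13.50 in the deficient cells and 15.02 and 14.61 in the controls of replicates 1 and 2. Both deficient samples lay below both controls, which held for 29.5% of all genes. On the scale of Agilent's processed signals the same spots read 5252 and 3532 against 10435 and 7741. The ratios of -1.01 and -1.11 put the deficient cells at 49.7% and 46.3% of control. The mean was -1.06 ± 0.08 (limma adjusted p = 0.0657), the 56th lowest of 14921 genes. Socs3 was the only member at least 2-fold lower on both arrays, against 0.275% of all genes. The arrays lay closer together for Socs3 than for any other member. The processed signals gave the same mean, -1.06. Median centring gave -0.68 (limma adjusted p = 0.0417), or -0.81 relative to the median of all genes in that setting. Separate-channel limma gave an adjusted p of 0.0371. In the controls, the sample with more granulocyte marker signal (36695 against 5243) also had the higher Socs3 signal, while the deficient sample with more (8874 against 6483) had the lower. The array has 1 Socs3 probe, at chr11:117782256-117782315 on the minus strand in mm8, so no second probe bears on this value. The 3 genes closest to Socs3 by Euclidean distance over the ratios of the 2 arrays were Agfg2 (0.016), Amh (0.034) and Tdrp (0.056).

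STAT proteins are known to bind the spaced palindrome TTCNNNGAA, and some a form with 4 bases between TTC and GAA. The 250 bases before each gene start in RefSeq (GRCm38.p6) were searched for both. Each motif reads alike on both strands, and matches of both can overlap in part. The table held 7 members with 8 promoters, Pim1 having 2. It held none for Socs2, Il10ra and Il10rb, so these were not searched. Of all 32851 promoters of that length, 7.02% held TTCNNNGAA and 5.85% held the longer form. Among the 7 members searched only Socs3 held a match, TTCTTAGAA, which starts 154 bases before the gene start. The stretch of Socs3 from 20 bases before that match to the gene start (chr11:117969367-117969540, minus strand) is printed with the match in capitals. Beside it stand the whole windows of Socs1 (chr16:10785537-10785786, minus strand) and Cish (chr9:107296409-107296658, plus strand), inhibitors that did not read lower on both arrays. These letters are not in the windows of Socs1 and Cish, which says nothing of sites elsewhere, and no binding was measured. The window of Il6ra, which read lower on both arrays, held no match either. Whether a match goes with a lower reading was not tested.
Socs3: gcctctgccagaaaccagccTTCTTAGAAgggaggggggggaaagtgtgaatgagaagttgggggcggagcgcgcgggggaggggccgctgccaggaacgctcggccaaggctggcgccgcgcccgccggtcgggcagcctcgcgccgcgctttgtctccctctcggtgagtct
Socs1: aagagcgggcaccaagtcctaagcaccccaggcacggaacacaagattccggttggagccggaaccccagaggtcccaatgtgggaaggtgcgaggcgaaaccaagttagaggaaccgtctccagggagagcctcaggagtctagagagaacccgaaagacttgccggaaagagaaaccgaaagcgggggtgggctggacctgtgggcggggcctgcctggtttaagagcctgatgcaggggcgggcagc
Cish: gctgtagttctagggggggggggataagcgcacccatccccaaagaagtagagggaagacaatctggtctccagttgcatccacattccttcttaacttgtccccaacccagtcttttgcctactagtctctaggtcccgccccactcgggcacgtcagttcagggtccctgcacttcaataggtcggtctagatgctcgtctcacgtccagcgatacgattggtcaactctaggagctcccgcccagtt

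Socs1, whose product inhibits Janus kinases directly, read in the other direction from Socs3. Its normalised log2 signals were 16.34 and 16.55 in the deficient cells and 16.21 and 15.85 in the controls. Both deficient samples lay above both controls, as for 27.3% of all genes, but by little on replicate 1. The ratios were 0.13 and 0.70 (mean 0.42 ± 0.17, limma adjusted p = 0.209). Socs1 belongs to the bright end of the arrays, and its value moved most with the normalisation. Processed signals gave -0.16 and 0.48, with a mean of 0.16. Centring on genes of like intensity gave 0.19, and median centring gave 1.03 (limma adjusted p = 0.0655). That last setting shifted the median gene by 0.13, and Socs1 stood at 0.90 relative to the median gene. The array has 1 Socs1 probe, at chr16:10697436-10697495 on the minus strand in mm8.

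Cish encodes CIS, an inhibitor known to be induced through STAT5, and it had no common direction. Its signals were 10.42 and 9.99 in the deficient cells and 10.69 and 9.83 in the controls, so the groups overlapped and the controls spanned the deficient samples. The ratios were -0.28 and 0.16 (mean -0.06 ± 0.14, limma adjusted p = 0.786). Processed signals read 333 and 205 in the deficient cells and 455 and 176 in the controls, so the control of replicate 1 was the highest of the 4 samples. That control was also the highest for the summed granulocyte, erythroid and B cell markers. The part of such cells in the Cish values was not tested.

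Socs2, whose product restrains growth hormone signals, was dim. Its brighter probe had mean signals of 1347 and 1277 in the deficient cells and 932 and 883 in the controls, not far above the negative controls of each channel. The normalised log2 signals were 9.53 and 9.26 against 9.45 and 9.31, and the groups overlapped. The ratios were 0.08 and -0.05 (mean 0.01 ± 0.08, limma adjusted p = 0.935). A sign this close to 0 was not stable: processed signals gave -0.07 and median centring -0.02. The other Socs2 probe, at chr10:94817801-94817860 in mm8, was not well above background in any channel, while the brighter one lay at chr10:94842120-94842179.

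**Figure D2:**
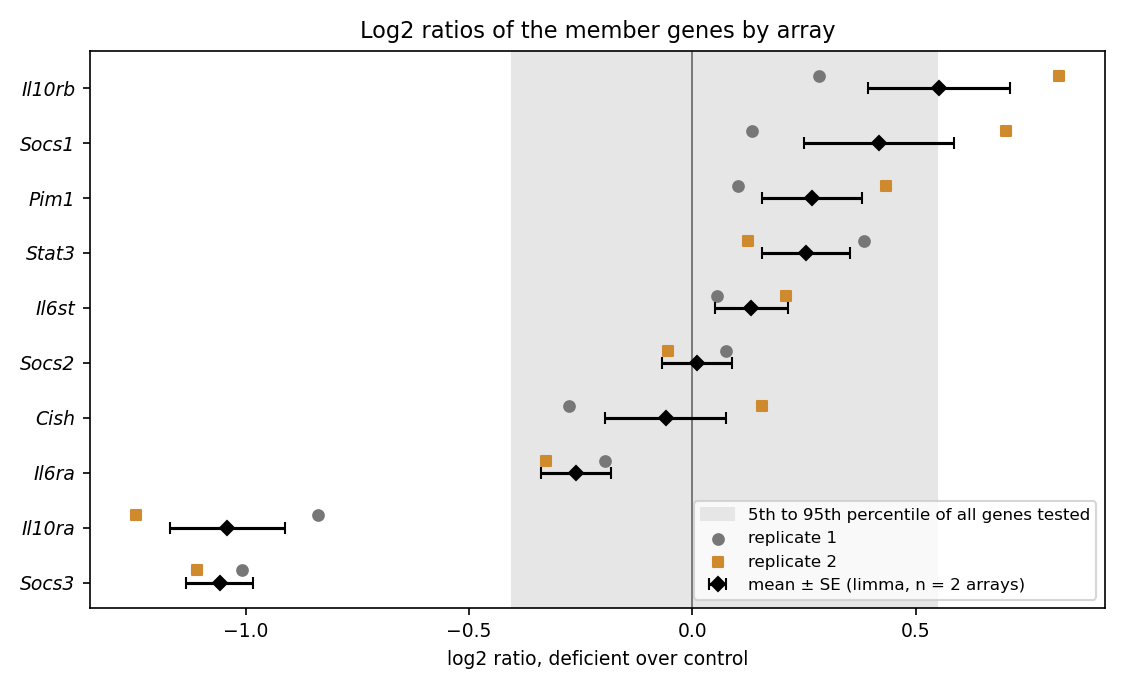
Log2 ratio of deficient over control (horizontal axis) for each member gene, with the 2 arrays as a circle and a square, the mean ± SE from limma as a diamond with bars, and the 5th to 95th percentile of all genes (-0.40 to 0.55) shaded. Socs3 and Il10ra lie to the left of the shaded range on both arrays, and the mean of Il10rb (0.55) lies at its right edge.

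The receptor chains of interleukin-10 read in opposite directions. Il10ra encodes the chain that binds interleukin-10, and its normalised log2 signals were 10.78 and 10.52 in the deficient cells and 11.62 and 11.77 in the controls. Both deficient samples were lower than both controls. Processed signals read 403 and 303 against 822 and 930. The ratios of -0.84 and -1.24 put the deficient cells at 56.0% and 42.2% of control (mean -1.04 ± 0.13, limma adjusted p = 0.0775). In the order of all genes it was the 60th lowest. The processed signals gave a larger difference, -1.03 and -1.62 with a mean of -1.32. Separate-channel limma gave an adjusted p of 0.0256. Median centring gave -0.89 (limma adjusted p = 0.0431), or -1.03 relative to the median of all genes in that setting. Macrophages are known to carry this receptor. Their summed markers, mostly Lyz2, read 35250 and 33834 in the deficient cells and 31316 and 12807 in the controls. Summed B cell markers read 3778 and 2798 in the deficient cells and 5918 and 3497 in the controls. The part of either cell type in the Il10ra values was not tested. The only Il10ra probe lay at chr9:45005149-45005208 on the minus strand in mm8.

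Il10rb encodes the partner chain that the receptors of interleukin-22 and interferon lambda also use. Its signals were 13.78 and 13.67 in the deficient cells and 13.50 and 12.85 in the controls, with the deficient samples above both controls. The deficient samples were alike, and most of the difference between the arrays came with the controls. Processed signals read 4957 and 4299 against 4045 and 2388. The ratios were 0.28 and 0.82 (mean 0.55 ± 0.16, limma adjusted p = 0.140), the largest mean of the members that were higher. The control of replicate 2, lowest for Il10rb, was also lowest for the macrophage marker Lyz2, which read 25054 and 28033 in the deficient cells and 23207 and 8756 in the controls. Lyz2 makes up most of the macrophage sum, other macrophage markers ordered the samples differently, and their part was not tested. The second Il10rb probe, at chr16:91303197-91303256 in mm8, was not well above background in any channel and its processed signals were substitutes. The first lay at chr16:91314506-91314565.

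Il6ra and Il6st, the chains that interleukin-6 needs, differed in brightness and in direction. Il6ra had normalised log2 signals of 9.44 and 9.41 in the deficient cells and 9.63 and 9.74 in the controls, all 4 just above background. The deficient samples lay below both controls, and the ratios were -0.19 and -0.33 (mean -0.26 ± 0.08, limma adjusted p = 0.148). Processed signals of 118 and 94.1 against 161 and 163 gave -0.45 and -0.79, with a mean of -0.62. A second Il6ra probe, at chr3:89972496-89972555 in mm8, was not well above background in any channel and read -0.15 and -0.04. The first lay at chr3:89962748-89962807. Il6st, the gp130 gene, was far above background, with signals of 13.05 and 13.13 against 13.00 and 12.92. The groups did not overlap, but the ratios were small, at 0.05 and 0.21 (mean 0.13 ± 0.08, limma adjusted p = 0.348). Its 1 probe lay at chr13:113627256-113627315 on the plus strand.

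Stat3, the transcription factor shared by these receptors, was measured by a probe printed 10 times on each array. Its mean normalised log2 signals were 15.15 and 14.88 in the deficient cells and 14.76 and 14.76 in the controls. Both deficient samples were higher than both controls. The ratios were 0.39 and 0.12 (mean 0.25 ± 0.10, limma adjusted p = 0.201). The repeated spots separate the error of a spot from that of an array. On processed signals the 10 ratios of replicate 1 ran from 0.31 to 0.45 (mean 0.38 ± 0.04, SD over spots), and those of replicate 2 from 0.09 to 0.19 (mean 0.14 ± 0.03, SD over spots). Every spot of both arrays read higher in the deficient channel, and the ranges of the arrays did not overlap. The spots share their RNA, so they are not replicates of the genotype. Here the arrays differed by more than the spots did. The second Stat3 probe, dim and at chr11:100701238-100701297 in mm8, read 0.31 and 0.45 (mean 0.38 ± 0.08, limma adjusted p = 0.120 over all kept probes), or 0.72 and 0.85 on processed signals. The first lay at chr11:100704374-100704433. Median centring gave Stat3 0.70 (limma adjusted p = 0.0413), or 0.57 relative to the median of all genes in that setting.

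Pim1 encodes a serine/threonine kinase that promotes survival and is known to be induced by STAT3 and STAT5. Its signals were 11.02 and 11.20 in the deficient cells and 10.92 and 10.77 in the controls. The groups did not overlap, with ratios of 0.10 and 0.43 (mean 0.27 ± 0.11, limma adjusted p = 0.221). This probe lay at chr17:29220807-29220866 on the plus strand. A second probe named Pim1 by the array, at chr17:29218694-29218753, is listed on the minus strand, opposite to the first. It was dim, with mean signals of 1248 and 1379 in the deficient cells and 883 and 914 in the controls. This second probe read 0.04 and 0.02 (mean 0.03 ± 0.07), and the mean of both probes was 0.15. What the second probe measures was not tested.

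**Figure D3:**
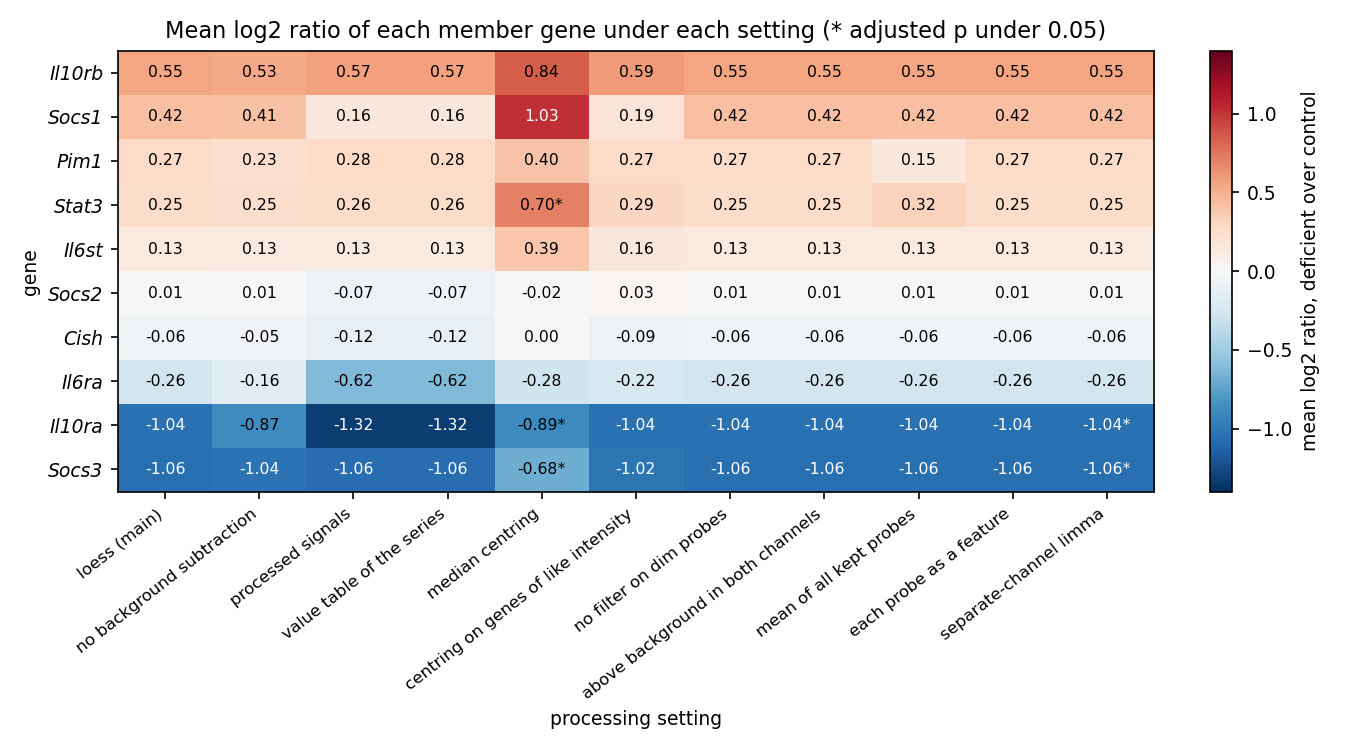
Mean log2 ratio of each member gene (vertical axis) under the main setting and 10 others (horizontal axis), with the value printed in each cell, colour from blue (lower in the deficient cells) to red (higher), and a star where the adjusted p was under 0.05. Socs3 and Il10ra are below -0.6 in each of the 11 settings, and Socs1 ranges from 0.16 to 1.03.

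The other genes of the pathway were taken from 11 lists with 84 genes, of which 62 were measured. None passed limma's test (0% of all genes), and separate-channel limma called 5 of the 62 and median centring 4, where these settings called 8.56% and 6.58% of all genes. Neither share stands far from that of all genes. At an unadjusted p under 0.05 there were 14 higher and 9 lower, or 37.1% of them, against 29.2% of all genes. The median of the 62 was 0.01. At least 1.5-fold higher on both arrays were 2 genes (Socs5 and Id2), against 2.47% of all genes, and none was 1.5-fold lower on both, against 1.21%.

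Of the other SOCS genes, 4 of 4 were measured, with a median of 0.10. Socs5, an inhibitor studied in interleukin-4 and EGF receptor signalling, had ratios of 0.67 and 0.87 (mean 0.77 ± 0.09, limma adjusted p = 0.0756), or 0.99 and 1.35 on processed signals. Separate-channel limma called it. Socs4 read -0.21 and -0.25 (mean -0.23 ± 0.07). Thus within the SOCS family Socs3 and Socs5 stood at opposite ends, at -1.06 and 0.77. Of 4 partners of the SOCS box in its ubiquitin ligase, Rnf7, the RING subunit, stood at 0.30 ± 0.07 and Cul5, the cullin scaffold, at -0.10 ± 0.07.

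Among the ligands of the gp130 family 4 of 9 were measured, and their means over both arrays ran from -0.04 to 0.03. For Ebi3 that mean came from arrays of opposite sign, at -0.27 and 0.26. Cntf stood at 0.03 ± 0.07 and Il27 at -0.04 ± 0.07, while Il6, Il11, Ctf1 and Clcf1 were not well above background in any channel. Partner receptors were measured for 3 of 6, with a median of -0.03. Of the 10 genes for interleukin-10 family ligands and receptors only Il20rb was measured, at 0.09 ± 0.07. Il10 itself was among the 8 that were not well above background in any channel.

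The Janus kinases read in both directions (4 of 4 measured, median 0.20). Jak2, a kinase that gp130 and many hormone receptors use among others, had ratios of -0.62 and -0.36 (mean -0.49 ± 0.10). Jak3, the partner of the common gamma chain, had ratios of 0.32 and 0.57 (mean 0.45 ± 0.10). Separate-channel limma called Jak2 lower. Of the 6 other STAT genes, with a median of -0.07, Stat5a stood at -0.46 ± 0.13 on ratios of -0.67 and -0.25 and Stat4, the transducer of interleukin-12, at 0.33 ± 0.08. Of 11 other inhibitors of these signals, with a median of 0.10, the adaptor gene Sh2b3 stood at 0.61 ± 0.13 and Pias3, which encodes a protein inhibitor of STAT3, at 0.41 ± 0.07. The other Pim kinases, Pim2 and Pim3, stood at 0.15 ± 0.07 and -0.24 ± 0.07.

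Genes known as induced through STAT3 were measured for 15 of 20, with a median of -0.00064, 3 higher and 2 lower at an unadjusted p under 0.05, a threshold that 29.2% of all genes passed. Icam1, an adhesion molecule, had ratios of 0.50 and 1.25 (mean 0.88 ± 0.21), and Cebpb, a transcription factor of myeloid cells, 0.36 and 1.12 (mean 0.74 ± 0.21). Both read far higher on replicate 2 than on replicate 1. Genes known as induced through STAT5 were measured for 9 of 10, with a median of 0.06. Id2, an inhibitor of E proteins, was the highest of all lists at 1.46 and 2.42 (mean 1.94 ± 0.27, limma adjusted p = 0.0815). Xbp1, a factor of the unfolded protein response, read -0.57 and -0.46 (mean -0.52 ± 0.08, limma adjusted p = 0.0844). Separate-channel limma called both.

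**Figure D4:**
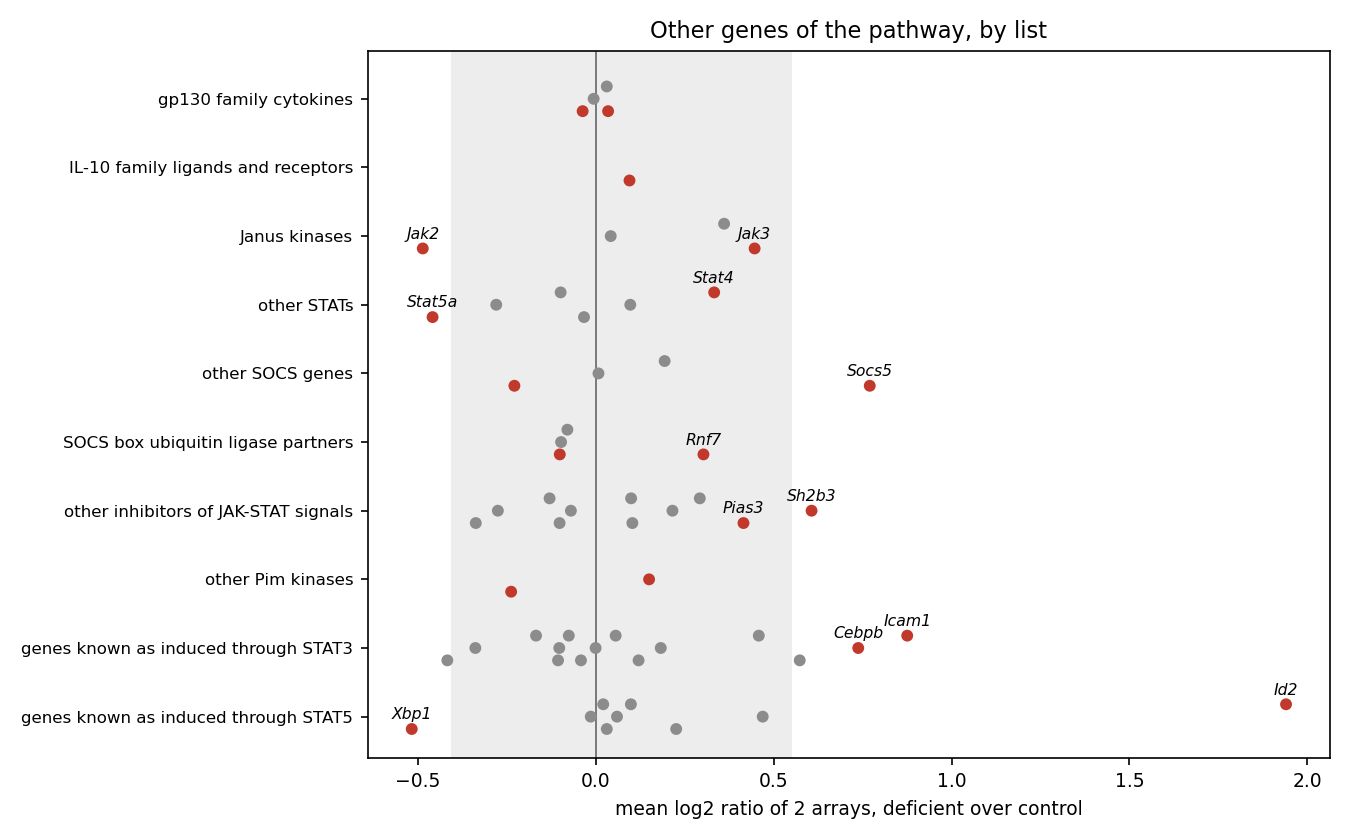
Mean log2 ratio of 2 arrays (horizontal axis) for the measured genes of each pathway list except the partner receptors (vertical axis, spread slightly for legibility), with the 2 largest of each list whose arrays agreed in sign in red and the 5th to 95th percentile of all genes shaded. Id2 at 1.94 lies farthest out. Of the other genes in red, Icam1, Socs5, Cebpb and Sh2b3 lie to the right of the shaded range, and Xbp1, Jak2 and Stat5a to its left.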

How the data were processed

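Per the file headers, the authors scanned 2-colour arrays and read them with Agilent Feature Extraction 9.5.3.1 (also in the submitters' processing notes). The deposited mean and local background signals are uncorrected intensity values, and the deposited processed signals are intensity values after the software's background and spatial correction and dye normalisation. The deposited ratios and the value table of the series hold log10 of Cy5 over Cy3, equal to within 0.005, with medians of 0.

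Mean signals were corrected by normexp with an offset of 50 and normalised by loess within arrays, in R 4.3.3 with limma 3.58.1. Signals of single channels were then scaled between arrays by the Aquantile method. Spots marked as outliers were left out (108 and 116), and spots of a probe were averaged. Probes well above background in the same channel on both arrays were kept (21539), and a gene took its brightest kept probe. Symbols came from a RefSeq gene table (GRCm38.p6) by accession (24488 probes), symbol (6240) or synonym (2385). The remaining 8061 probes kept the name given by the array and were not excluded from the genes tested. Array coordinates are mm8, as in the files.

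limma tested the mean ratio of 2 arrays against 0 with 1 residual degree of freedom and a prior of 2.51, adjusted by Benjamini-Hochberg over 14921 genes. The fit was tested on ratios simulated with its own fitted spread and no effect of dye or of mixed cells. That test therefore cannot say how such effects bear on these arrays. Nothing says whether the replicates came from separate mice beyond the word biological, so p-values measure the spread between these samples. The precision of every value is limited by having 2 arrays. Named genes are all members, the 2 genes of each pathway list with the largest absolute mean ratio of the same sign on both arrays, the 3 genes nearest to the member with the largest ratio, Bcl11b, and markers. A gene that this rule names is not reported here. The members and lists were chosen with earlier results of these data known. Alternatives were other background corrections, normalisations, filters, probe rules and tests.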

Additional observations from a re-analysis of the deposited data

How the results depend on the processing

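The main setting called 0 members, 0 other pathway genes and 0 genes in all, with 4361 genes at an unadjusted p under 0.05. Median centring called 3 members, 4 other pathway genes and 982 genes (877 higher and 105 lower), and separate-channel limma called 2, 5 and 1277 (708 higher and 569 lower). Processed signals called 132 genes (74 higher and 58 lower) and the value table of the series 28 (22 higher and 6 lower), with no member or pathway gene among them. The cause of these differences was not tested. The count of members 1.5-fold changed on both arrays was 2, and 4 with median centring, and ran from 2 to 4 when either array was left out. Without replicate 1 those 4 were Socs3, Il10ra, Il10rb and Socs1. The mean of Socs2 was -0.069 with processed signals, -0.069 with the value table, -0.022 with median centring, -0.055 without replicate 1 and 0.076 without replicate 2, and that of Cish was 0.16 without replicate 1 and -0.28 without replicate 2. The other 8 members kept their sign in all 10 settings and without either array. Over the 10 settings Socs3 ran from -1.06 to -0.68 (limma adjusted p from 0.0371 to 0.120) and Il10ra from -1.32 to -0.87 (0.0256 to 0.120). The main test is itself paired, since each array's ratio sets 1 deficient against 1 control sample. Probes near background limit Il6ra, Socs2 and the second probes of Stat3 and Pim1.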
